A study of Mus musculus with 4 samples.

Results

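The cells described here are fibroblasts of mouse bone and marrow that carried transcripts of some, seldom all, of the 6 genes Col6a5, Ccl11, C7, Col6a6, Inmt and Dkk2. A cell was a member when at least 1 UMI (unique molecular identifier, 1 counted transcript molecule) was found for at least 3 of these 6 genes, when it had fewer than 2 UMIs of Pi16, and when fewer than 3 of the 5 genes Scg3, Sema3e, Islr2, Tppp3 and Ociad2 were detected. The rule was applied to cells with at least 200 detected genes and at most 20% mitochondrial UMIs, and it found 571 of 15670 such cells, or 3.64%. The members were therefore chosen by their measured transcripts, and the levels of the 12 genes of the rule are given as a description with no test. The young mouse supplied 368 members of 10063 cells (3.66%; exact 95% interval 3.30 to 4.04) and the old mouse 203 of 5607 (3.62%; 3.15 to 4.14), intervals that cover counting error only.

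The study surveyed skeletal mesenchymal cells of aging mice for signs of senescence, and this experiment paired single-cell mRNA counts with counts of an oligonucleotide-tagged antibody to CD24 (CITE-seq). The young group was 1 INK-ATTAC mouse of 6 months and the old group 1 INK-ATTAC mouse of 24 months, both untreated. INK-ATTAC mice carry a transgene in which the p16Ink4a promoter drives an inducible caspase 8, so that cells expressing p16Ink4a can be cleared with a drug, which neither mouse received. Femurs and tibiae were digested after the marrow had been collected, bone and marrow cells were pooled, cells with hematopoietic lineage markers were depleted, and live CD45- cells were sorted. With 1 mouse and 1 library per age, age cannot be told apart from the animal or its library.

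Fibroblasts of connective tissue build and remodel the matrix around vessels, nerves, muscle and bone, and they differ by site in the collagens, cytokines and enzymes they make. Collagen VI forms beaded microfibrils close to the cell surface from the chains of Col6a1 and Col6a2 and a further chain, for which Col6a3, Col6a4, Col6a5 and Col6a6 are alternatives. C7 is a late complement component that enters the membrane attack complex, Ccl11 (eotaxin) is a chemokine that attracts eosinophils, Dkk2 is a secreted antagonist of WNT receptors, and Inmt methylates indoleamines. Pi16-positive fibroblasts are known as an adventitial type shared by many tissues, and Lepr Adipoq cells are the stromal cells of marrow that supply Cxcl12 and Kitl to blood stem cells.

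The young library held 82675434 mRNA UMIs and the old one 68580402. Median depth was 7415 UMIs per young member and 11616 per old member, against 6385 and 9711 in all kept cells, so members lay somewhat above the typical depth of their library. Scrublet called 18 young members (4.89%) and 2 old members (0.985%) doublets, and 25 cell barcodes were shared by the libraries. Ptprc, which encodes CD45, had 1 UMI in 1 member of each mouse. By contrast it was detected in 27 (4.74%) young and 70 (19.8%) old cells of the Pi16-positive set used below for comparison, so that set held cells with a transcript of blood cells.

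Each of the 6 genes was found in a large minority or a majority of members, and none of them in every member. Col6a5 was detected in 47.8% of young and 43.3% of old members, at 438 and 327 CPM in the summed members (CPM, the gene's share of all UMIs of the summed cells on the counts-per-million scale). Its neighbour Col6a6 was detected in 71.2% and 61.1% (277 and 187 CPM). C7 was found in 71.7% and 79.8% (434 and 445 CPM) and Ccl11 in 60.6% and 66.0% (361 and 321 CPM). C7 was thus the most often detected of the 6 in both mice. Inmt was detected in 44.8% of young and 51.2% of old members (194 and 176 CPM), and Dkk2 in 53.0% and 51.2% (304 in each mouse). In erythroid cells, which should lack these genes and had median depths of 18933 (young) and 18970 UMIs (old), the 6 genes were detected in 1.03% to 1.44% of 485 young cells and in 0.00% to 1.42% of 424 old cells, where 0 cells allow a share of up to 0.708%.

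The other 3 sets shared some of these genes, most of all the Pi16-positive fibroblasts (at least 2 Pi16 UMIs; 570 young and 353 old cells). In that set C7 was present in 47.9% of young and 52.4% of old cells, Ccl11 in 36.0% and 41.1%, and Inmt in 19.8% and 35.1%, while Col6a5 was present in only 7.54% and 8.50%. Fibroblasts with at least 3 of Scg3, Sema3e, Islr2, Tppp3 and Ociad2 (526 young and 274 old cells) had Col6a6 in 17.3% and 17.9% of cells and Dkk2 in 15.02% and 12.4%. Lepr Adipoq stromal cells (at least 2 UMIs of each gene; 2302 young and 1536 old cells) had Col6a5 in 3.17% and 7.29% of cells and each of the other 5 genes in at most 1.61%. Of the exclusion genes, Tppp3 was still found in 76.1% of young and 69.0% of old members, since a cell could carry up to 2 of those 5 genes.

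**Figure D1:**
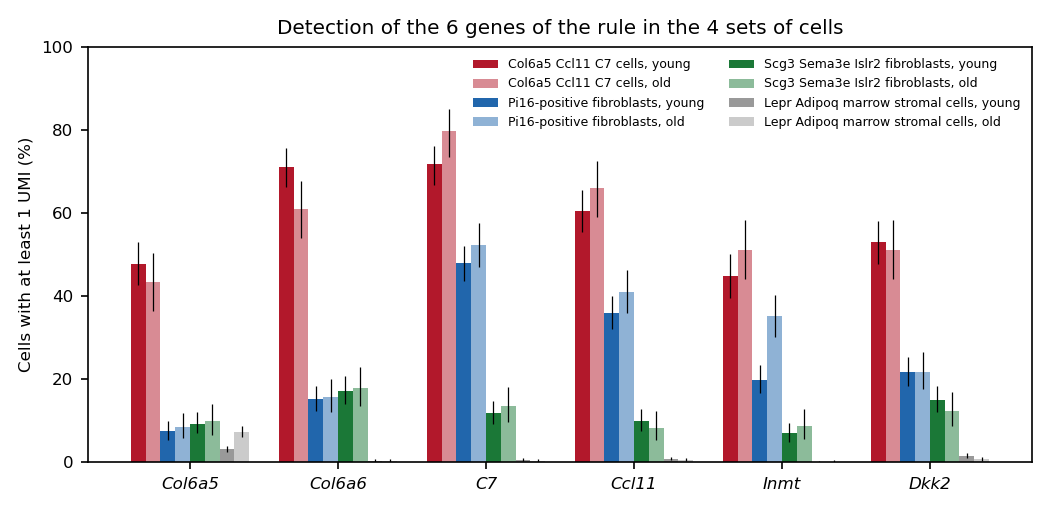
Share of cells (%, vertical axis) with at least 1 UMI of each of the 6 genes of the rule, in the members and the 3 comparison sets of the young (full colour) and old (pale) mouse, with exact 95% intervals as error bars. Members range from 43.3% (Col6a5, old) to 79.8% (C7, old), and C7 and Ccl11 are the genes that the Pi16-positive fibroblasts share most.

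Members met the rule through many different combinations of the 6 genes. Of the 42 combinations of at least 3 genes, 38 occurred among young and 33 among old members. The most frequent in the young mouse was C7 with Ccl11 and Inmt, in 43 members (11.7%), followed by Col6a6 with C7 and Dkk2 in 29 (7.88%) and Col6a5 with Col6a6 and Ccl11 in 28 (7.61%). Col6a5 and Col6a6 were found together in 153 young members (41.6%) and 69 old members (34.0%). Col6a5 and Inmt met least often, in 36 young (9.78%) and 24 old members (11.8%). Inmt was detected in 20.5% of young members with Col6a5 and in 67.2% of those without it, and in 27.3% and 69.6% in the old mouse. A cell that lacks 1 of the 6 genes must carry more of the others to be a member, so such shares among the rule genes fall partly by construction.

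The number of rule genes detected per cell showed no gap at the edge of the rule. Most members were just inside the rule, with exactly 3 genes (215 young and 120 old cells). A further 127 young and 62 old cells had 4 of the genes, 24 and 18 had 5, and only 2 and 3 had all 6. Just outside it, 374 young and 168 old cells passed the exclusions with 2 of the genes. Genes outside the rule changed along the same scale. Sult1e1, which encodes the sulfotransferase that inactivates estrogens, had 0.146 CPM in young cells with none of the genes, 20.3 with 2, 50.4 with 3 and 138 with 4. In the old mouse the values were 0.108, 2.99, 30.5 and 63.5 CPM. C3, the central complement component, went from 175 CPM with none to 1219 with 2 and 1708 with 3 in the young mouse, and from 194 to 1747 and 2350 in the old. Fgf10, a fibroblast growth factor that signals to epithelium, stood at 2.57, 33.0 and 43.0 CPM at 0, 2 and 3 genes in the young mouse and at 0.908, 25.4 and 58.8 in the old. The cells just outside the rule were thus already well above the cells with none of the genes in C3 and Fgf10, and below the members in Sult1e1, C3 and Fgf10. The cells with none were most of each library (7193 young and 4067 old) and not fibroblasts alone, so the rise from them also reflects the mix of cells.

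**Figure D2:**
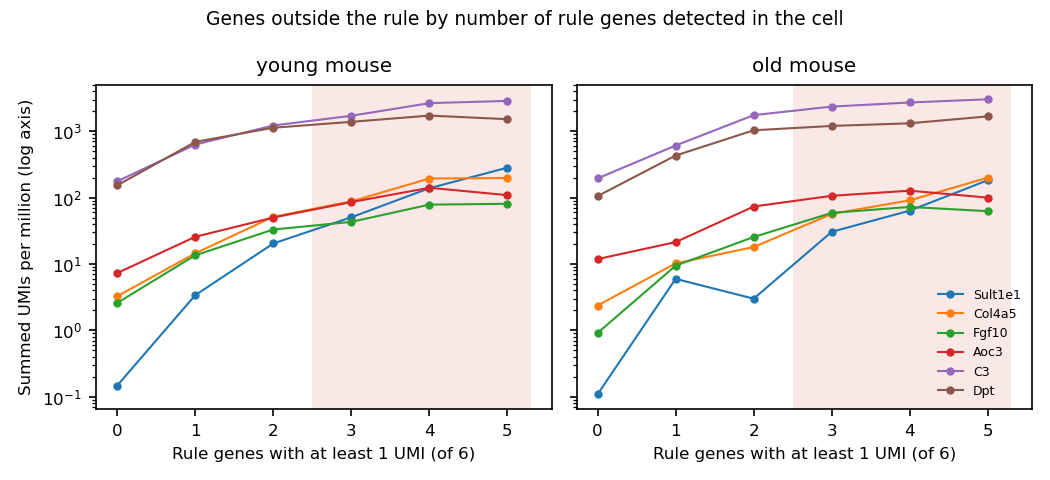
CPM (log axis) of genes outside the rule, summed over cells that carried 0 to 5 of the rule genes and passed the exclusions, in the young (left) and old (right) mouse; the shaded columns are members. Sult1e1 rises from 20.3 to 50.4 CPM between 2 and 3 genes in the young mouse and from 2.99 to 30.5 in the old; the points at 5 genes hold 24 young and 18 old cells.

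Every member carried fibroblast markers. All 368 young and 203 old members had at least 3 of 12 such markers, with a median of 12 in both mice. The same threshold was met by 94.0% of young and 99.6% of old Lepr Adipoq cells, with medians of 5 and 7. The threshold alone thus does not set members apart from marrow stroma. Dcn (decorin) was present in every member of both mice, Pdgfra in 96.2% and 97.5%, Dpt (dermatopontin) in 97.0% and 95.6%, Ly6a (Sca-1) in 98.1% and 98.0% and Cd34 in 93.5% and 91.6%. At least 3 of the 8 markers listed for Col15a1 fibroblasts, another type shared by many tissues, were found in 84.2% of young and 95.1% of old members, but also in 90.1% and 96.5% of Lepr Adipoq cells, so that this list does not mark members. At least 3 of the 9 Pi16 fibroblast markers other than Pi16 were found in 37.0% and 28.1% of members, and in 75.3% and 58.1% of Pi16-positive cells. The Scg3 Sema3e Islr2 fibroblasts met the same threshold in 85.0% and 76.6% of cells, so that this list does not mark Pi16-positive cells alone. Penk, which encodes the enkephalin precursor and belongs to the Col15a1 fibroblast list, was present in 70.7% and 77.3% of members.

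Some markers of marrow stroma were present too, chiefly broadly expressed ones. At least 3 of the 10 marrow stromal markers were found in 66.6% of young and 83.3% of old members. Their summed level was 2883 and 3895 CPM, of which Cxcl12 alone made 2106 and 3107. Lepr was detected in 40.5% and 47.3% of members, at 151 and 137 CPM. Adipoq, the more restricted marker, was found in 4.89% and 5.91% of members, and the level of Lepr in the Lepr Adipoq set was 1560 and 1636 CPM. At least 3 of 10 tendon markers were found in 34.0% and 45.3% of members, where the leading marker was the stress-responsive Egr1. The part of these transcripts in the comparisons below was not tested, and counts of genes without the members that had a Lepr UMI are in the closing section.

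Markers of blood and vessel cells were nearly lacking. No member of either mouse had 3 markers of endothelial cells, of T and NK cells or of macrophages, which allows shares of up to 0.997% of young and 1.80% of old members by the exact interval. All 8 T and NK markers were at 0 UMIs in both mice. At least 3 erythroid markers were found in 1.63% of young and 0.493% of old members, led by Car1 at 170 and 138 CPM. For megakaryocyte markers the shares were 0.00% and 1.48%, and for B lineage markers 0.272% and 0.00%. Sost, the osteocyte marker, was at 0 in members of both mice, and 3 of 10 osteoblast markers were found in 3.80% and 6.40% of members. At least 3 neutrophil markers were present in 0.00% of young and 1.97% of old members, 3 pericyte or smooth muscle markers in 1.36% and 7.88%, and 3 of the 8 joint lining markers in 1.36% and 1.48%.

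Col6a5 and Col6a6 lie beside each other, followed by Col6a4, on chromosome 9 of the mouse build GRCm38.p6 (chr9:105856070-105962463 for Col6a5 and chr9:105689417-105828246 for Col6a6, per RefSeq). Of this collagen VI array, Col6a4 had too few UMIs to be tested. The other genes of the rule lie apart, C7 at chr15:4987750-5063773, Ccl11 at chr11:82057832-82062955, Inmt at chr6:55170627-55174990 and Dkk2 at chr3:132085266-132180304. Sult1e1, the gene outside the rule with the largest difference below, lies at chr5:87575968-87591611. Because members were defined by transcripts that occur together, the 250 bases before the annotated start are shown for those genes whose window lies wholly outside the gene, 2 genes of the rule and Sult1e1. All 3 are RefSeq sequences of GRCm38.p6 on the minus strand, written 5′ to 3′ as transcribed, at chr15:5063774-5064023 for C7, chr6:55174991-55175240 for Inmt and chr5:87591612-87591861 for Sult1e1. Capitals mark matches, on either strand, to TATAAA (the TATA box), to TGANTCA (an AP-1 site) or to TTCNNNGAA (a STAT site).
C7: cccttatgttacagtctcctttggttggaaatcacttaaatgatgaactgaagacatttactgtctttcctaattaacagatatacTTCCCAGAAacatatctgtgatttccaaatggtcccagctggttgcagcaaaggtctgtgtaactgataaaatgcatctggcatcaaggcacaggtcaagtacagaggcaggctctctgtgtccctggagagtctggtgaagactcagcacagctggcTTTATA
Inmt: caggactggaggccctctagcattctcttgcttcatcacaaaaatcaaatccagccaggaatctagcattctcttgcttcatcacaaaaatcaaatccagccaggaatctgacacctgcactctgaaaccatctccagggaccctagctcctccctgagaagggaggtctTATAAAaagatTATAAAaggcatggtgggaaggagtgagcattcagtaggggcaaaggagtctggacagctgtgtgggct
Sult1e1: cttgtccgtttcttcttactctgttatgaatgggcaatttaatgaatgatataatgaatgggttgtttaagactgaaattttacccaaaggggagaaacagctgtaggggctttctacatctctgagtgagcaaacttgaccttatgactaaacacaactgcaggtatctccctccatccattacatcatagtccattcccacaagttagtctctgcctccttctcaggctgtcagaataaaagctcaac
The C7 window held 1 TATAAA match, read on the other strand, and 1 TTCNNNGAA match. The Inmt window held 2 TATAAA matches and none of the other motifs, and the Sult1e1 window held no match to any of the 3. Among 32851 mouse promoter windows of the same length, 12.37% held TATAAA, 6.749% TGANTCA and 7.02% TTCNNNGAA. None of these 3 motifs was found in all the windows printed. The short E-box motif CANNTG, searched on the same windows and not marked here, occurred 4 times in C7, 2 times in Inmt and 2 times in Sult1e1, and it was present in 66.22% of all promoter windows. A match is a description of these letters and not a measured binding site.

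Members were next compared with each of the other 3 sets, to ask which genes outside the rule set them apart from the cells most like them. UMIs of all cells of a set were summed per mouse, which gave 8 sums (4 sets in 2 mice) of which the young member sum held 3146952 UMIs and the old one 2498380. They were fitted together by edgeR's quasi-likelihood test with the mouse as a block and Benjamini-Hochberg adjustment over 13048 genes, and a gene was called at an adjusted p under 0.05. Cells of a mouse share their animal and library and are not replicates, so that each p-value measures only the spread between these sums. All sets were picked on expression, and genes expressed along with the rule genes can differ by construction. Fold changes are given as log2 differences with their standard error.

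A compact group of genes was higher in members than in all 3 other sets. It held 47 of the 13036 tested genes outside the rule (0.361%), and 19 genes (0.146%) were lower in all 3. Sult1e1 led it. Its level was 100.1 CPM in young and 56.4 in old members, against 6.13 and 0.515 in Pi16-positive fibroblasts, 4.96 and 5.43 in the Scg3 set and 0.193 and 0.00 in Lepr Adipoq cells. Within each mouse the member sum was thus more than 10 times as high as each other sum, although Sult1e1 was detected in only 16.03% of young and 16.7% of old members. By edgeR's quasi-likelihood test the log2 differences were 4.50 ± 0.47 (Benjamini-Hochberg adjusted p = 0.0065), 3.89 ± 0.43 (0.0022) and 9.55 ± 0.62 (3.1e-05), and the last rests on 3 UMIs in the Lepr Adipoq cells of both mice.

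Several of the genes higher in all 3 comparisons encode receptors and growth factors. Prlr, the prolactin receptor, stood at 15.9 and 34.8 CPM in young and old members and between 0.129 and 3.61 in the other sums. Its log2 differences were 3.24, 3.39 and 7.27 against the Pi16, Scg3 and Lepr sets. Ntf3, the neurotrophin NT-3, had 33.7 and 50.4 CPM in members and at most 8.76 elsewhere (log2 differences 2.46, 3.34 and 5.95). Fgf10 had 57.5 and 66.0 CPM in members against 13.3 to 17.5 in the other fibroblast sums and 0.605 to 0.643 in Lepr Adipoq cells (2.03, 1.83 and 6.75). In none of these genes did a member sum overlap any other. Cntfr, the receptor of ciliary neurotrophic factor, was at 35.6 and 52.0 CPM in members and between 2.48 and 16.8 elsewhere. Trpc5, a cation channel, was at 7.31 and 9.21 CPM, in 3.53% of young and 6.90% of old members.

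Others of the 15 encode matrix or surface proteins. Col4a5, a basement membrane collagen chain, had 130 and 81.3 CPM in members, 11.3 to 36.5 in the other fibroblast sums and 0.404 to 1.29 in Lepr Adipoq cells, with log2 differences of 2.39 ± 0.19, 1.96 ± 0.18 and 7.14 ± 0.25. Adamts12, a secreted metalloprotease, was at 81.3 and 74.4 CPM (1.41, 1.34 and 2.84). Lsamp, a neural adhesion protein, was at 89.9 and 100.5 CPM (1.54, 2.96 and 6.04). Sparcl1, a matricellular protein, had 469 CPM in young and 851 in old members, and both sums lay above the highest of the others, 387 in the old Pi16 set (1.29, 2.07 and 3.46). Emb, which encodes embigin, was at 292 and 366 CPM and had the smallest difference among the 15 named genes (1.03, 1.37 and 1.39). Gask1b, Gm266 and the retinoic acid hydroxylase gene Cyp26b1 were also among the 15. Cenpf, a mitotic gene, was named too, but it was detected in only 2.45% of young and 1.48% of old members, and its direction turned in all 3 comparisons when at least 4 rule genes were required (log2 differences -1.53, -2.04 and -1.54).

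Genes lower than in all 3 sets included growth factor regulators. Igfbp5, which binds insulin-like growth factors, had 1114 and 956 CPM in members, 5645 and 3158 in the Pi16 set, 3136 and 2619 in the Scg3 set and 7340 and 11826 in Lepr Adipoq cells. The log2 differences were -2.10, -1.49 and -3.06. Bmp6, a bone morphogenetic protein, was at 4.77 and 2.40 CPM in members, 10.4 to 16.3 in the other fibroblast sums and 272 to 274 in Lepr Adipoq cells. Member sums lay below every other sum for both genes. Tnfrsf11b, which encodes the RANKL decoy osteoprotegerin, was at 2.22 and 0.00 CPM in members and between 5.67 and 52.7 elsewhere. Ccn2, a matricellular growth factor, was at 58.8 and 78.9 CPM in members and at 125 or more elsewhere (-1.22, -1.64 and -3.03). Olfml2a, Arnt2, Col8a1, Ptgs1, Pla1a and Limch1 were the other named genes of this group.

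**Figure D3:**
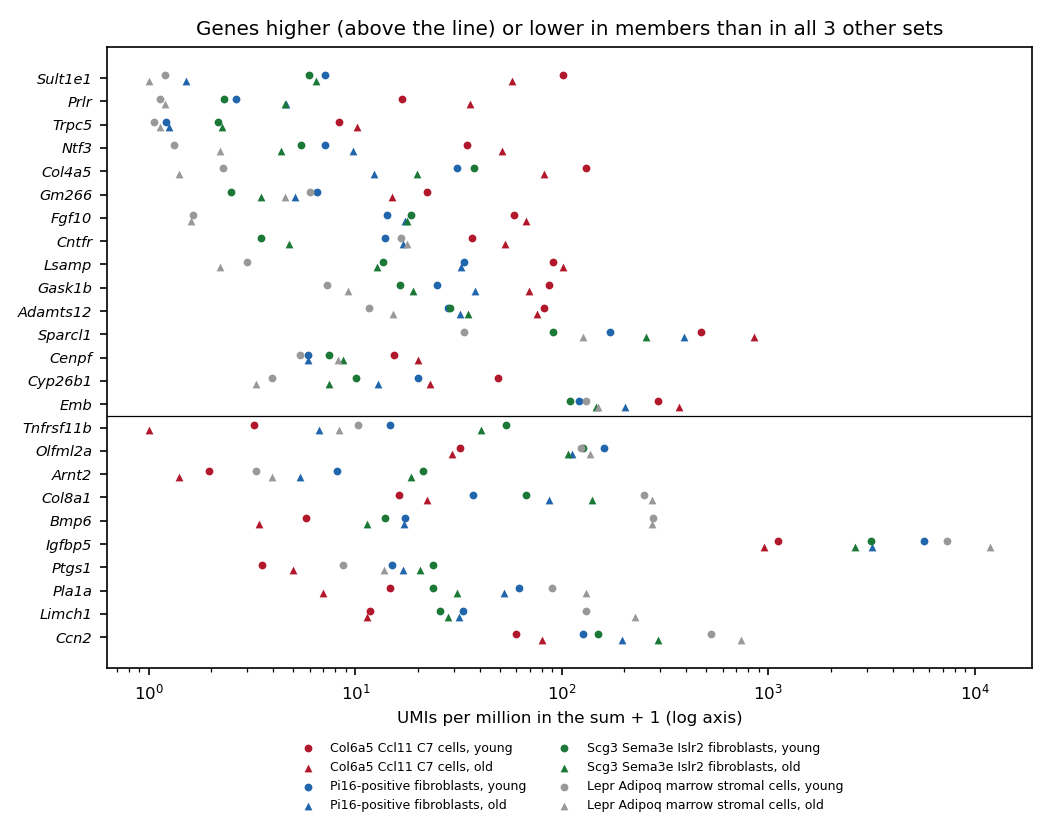
CPM + 1 (log axis) of the 15 genes named as higher (above the line) and the 10 named as lower in members than in all 3 other sets; each point is the sum of 1 set in 1 mouse. For Sult1e1 both member sums, 100.1 and 56.4 CPM, lie more than 10 times above every other sum of the same mouse, and for Bmp6 the Lepr Adipoq sums, 274 and 272, stand apart from the fibroblasts.

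The comparison with Pi16-positive fibroblasts called the fewest genes of the 3. Here 102 genes (0.782% of 13036) were higher and 272 (2.09%) lower in members. Besides Sult1e1, Trpc5, Prlr and Ntf3, the highest differences were in Myh11, a smooth muscle myosin (2.54 and 11.2 CPM in members, 0.00 and 0.258 in the Pi16 set; log2 difference 5.56 ± 1.1), Chrm2, a muscarinic receptor (3.70), Isl1, a homeobox factor (33.4 and 19.2 against 3.27 and 4.12; 2.82) and Arc, an immediate-early gene (2.65). All 8 of the lowest were genes of neutrophils and other myeloid cells that had no UMI in any member. Mmp8, the neutrophil collagenase, had 34.1 and 179 CPM in the Pi16 set and was at least 185-fold lower in members, taking 3 UMIs over both mice as the floor. Trem1, Mcemp1, Chil3, Nlrp3, Osm, Cd177 and Cd300ld were lower by at least 48.0-fold to 123-fold on the same floor. Ptprc was found in 4.74% and 19.8% of the cells of that set. When Pi16-positive cells with a Ptprc UMI or no Dcn UMI were left out, 287 genes were called, 107 higher and 180 lower, and 224 of them were among the 374. None of the 8 lowest genes named here was called then, and the call of Myh11 was lost as well. The Pi16 set also shared the rule genes with members. At least 3 of the 6 were found in 116 young (20.4%) and 114 old (32.3%) cells of that set. When these cells were left out, 502 genes were called, 152 higher and 350 lower, and 360 of them were among the 374. Without the mouse as a block 120 genes were called, 28 higher and 92 lower.

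Against the Scg3 Sema3e Islr2 fibroblasts, 706 genes (5.42%) were higher and 814 (6.24%) lower in members. The 8 highest were genes of low level, at most 18.4 CPM in members. Dlk1, an imprinted antagonist of adipogenesis, had 4.45 and 10.8 CPM in members and no UMI in the Scg3 set, at least 26.2-fold higher. Fads6 (4.58), Kcna2, a potassium channel (4.75), the imprinted genes Zim1 (5.65) and Dio3os (4.53), Egflam, B130024G19Rik and Gm19277 were the others. A more abundant gene with a difference of like size was Gsta3, a glutathione transferase (27.0 and 39.6 CPM in members, 1.82 and 0.835 in the Scg3 set; log2 difference 4.52 ± 0.48). Among the lowest, Npy, a neuropeptide, had 20.2 and 8.77 CPM in the Scg3 set and no UMI in members, at least 28.5-fold lower. Slurp1, a secreted Ly6-family protein, had 0.636 and 0.00 CPM in members against 97.0 and 16.9 (-7.51 ± 1.1). Cst6, Csf2, Cyp3a13, Erg, Capns2 and Ddah1 were at 0 UMIs in members, and at least 8.16-fold to 14.9-fold lower.

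The comparison with Lepr Adipoq cells called the most genes, 2520 (19.3%) higher and 2230 (17.1%) lower in members. Sult1e1 led again, followed by Mlana (2.22 and 16.01 CPM in members, no UMI in the Lepr set; at least 84.4-fold higher), Chrm2 (at least 64.7-fold) and St6galnac5 (at least 50.3-fold). Lgi2 (29.6 and 53.2 CPM against 0.257 and 0.269; log2 difference 7.34) and Prokr1, a prokineticin receptor (15.6 and 18.4 against 0.0643 and 0.135; 7.34), overlapped with the Pi16-positive fibroblasts, at 51.7 and 35.8 for Lgi2 and 16.96 and 18.03 for Prokr1. Sel1l3 and Frmpd4 completed the 8. Mbl1, a mannose-binding lectin, had 23.3 and 10.2 CPM in the Lepr set and no UMI in members, at least 31.8-fold lower. Gm2694, Mmp8, Rapgef5, Chil3, Irx3os, Tex15 and Sftpa1 were likewise at 0 in members, at least 17.4-fold to 27.8-fold lower. Mmp8 and Chil3 are the myeloid genes named above. In the Lepr Adipoq set, at least 3 neutrophil markers were found in 2.00% of young and 3.39% of old cells, and Ptprc in 2.48% and 1.17%. The part of such cells in these differences was not tested. Cxcl12 and Kitl, by which marrow stroma supports blood stem cells, were far lower in members, Cxcl12 at 2106 and 3107 against 26924 and 23662 CPM (-3.13 ± 0.23) and Kitl at 50.5 and 68.0 against 1774 and 1993 (-4.83 ± 0.15).

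Gene lists were read by counts, beside the median log2 difference over all tested genes, which lay between -0.01 and 0.02 in each comparison. Over all 13036 tested genes outside the rule, the shares called higher and lower were 0.782% and 2.09% against the Pi16 set. They were 5.42% and 6.24% against the Scg3 set and 19.3% and 17.1% against the Lepr set. Counts near these shares are not a result about a list, as with chemokines, senescence and stress genes against the Lepr set. In the collagen VI list, Col6a1, Col6a2 and Col6a3 were all 3 higher in members than in the Pi16 set (median 0.81) and the Lepr set (2.03), and none of the 3 was called by edgeR against the Scg3 set (-0.40), where all 3 were lower at an unadjusted p under 0.05 and DESeq2 called 1. Col6a3, the usual partner of Col6a1 and Col6a2, had 670 and 713 CPM in members and 346 and 436 in the Pi16 set (0.81 ± 0.15). Of 20 basement membrane genes, 5 were higher and 0 lower by edgeR against the Pi16 set (3 were lower at an unadjusted p under 0.05, and 1 by DESeq2), 8 and 2 against the Scg3 set and 12 and 5 against the Lepr set. Col4a1 was among those higher in all 3 (651 and 749 CPM in members; 1.14, 1.05 and 0.60), and Lama1 was lower than in Lepr Adipoq cells (-5.48). Of 11 fibrillar collagens, 2 were higher and 0 lower by edgeR in the Pi16 comparison, 0 and 1 in the Scg3 comparison and 6 and 2 in the Lepr comparison, while at an unadjusted p under 0.05 these were 7 and 0, 0 and 6, and 6 and 2, and by DESeq2 4 and 0, 0 and 3, and 6 and 2. Col3a1 and Col5a3 were higher than in the Pi16 set (0.81 and 1.11) and Col11a2 lower than in the Scg3 set (-2.17). The calls of Col6a3 and Col3a1 against the Pi16 set were lost when Pi16-positive cells with a Ptprc UMI or no Dcn UMI were left out.

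Of 20 elastic fibre genes, 0 were higher (1 at an unadjusted p under 0.05, and 1 by DESeq2) and 3 lower than in the Pi16 set by edgeR, and 3 were higher and 6 lower than in the Scg3 set. Mfap5, a microfibril protein, had 647 and 655 CPM in members against 1311 and 1141 in the Pi16 set and 1026 and 1047 in the Scg3 set (-0.94 ± 0.10 and -0.68 ± 0.10). Fbn1 (fibrillin) and Emilin2 were lower in the same 2 comparisons. Against Lepr Adipoq cells 10 of the 20 were higher, Mfap5 among them (5.31), and 7 lower. Of 15 small leucine-rich proteoglycans, edgeR called 0 against the Pi16 set (5 at an unadjusted p under 0.05, and 1 by DESeq2), while 3 were higher and 3 lower than in the Scg3 set and 7 and 2 in the Lepr comparison. Ogn (osteoglycin) was higher than in the Scg3 set (1428 and 1557 against 471 and 339 CPM; 1.87 ± 0.18), and Fmod (fibromodulin) was lower (45.1 and 21.6 against 137 and 195; -2.41 ± 0.39). Podnl1 was lower than in the Lepr set (-4.32). Of 23 matrix proteases and inhibitors, Adamts12 was higher and Mmp9 lower than in the Pi16 set, where Mmp9, a gene that neutrophils express, had 52.1 and 157 CPM, 4 were higher and 1 lower than in the Scg3 set, and 11 and 6 in the Lepr comparison.

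Of 19 complement genes tested, 10 were higher and 1 lower than in the Scg3 set (median 0.88), 1 and 2 in the Pi16 comparison (-0.24) and 6 and 6 in the Lepr comparison (-0.25). C3 was higher in all 3. It had 2106 and 2544 CPM in members, 1426 and 1580 in the Pi16 set, 685 and 732 in the Scg3 set and 378 and 518 in the Lepr set (0.60 ± 0.11, 1.69 ± 0.11 and 2.55 ± 0.11). Both member sums lay above all 6 others. The call of C3 against the Pi16 set was lost when Pi16-positive cells with a Ptprc UMI or no Dcn UMI were left out. C4b was higher than in the Scg3 and Lepr sets (1.16 and 0.71). Cd55, a complement inhibitor on the cell surface, was at 69.9 and 46.0 CPM against 456 and 292 in the Pi16 set (-2.72 ± 0.23) and 422 and 273 in the Scg3 set (-2.60 ± 0.23). It is itself on the list of Pi16 fibroblast markers.

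Of 20 chemokines besides Ccl11, 1 was higher and 2 were lower than in the Pi16 set, 6 and 1 than in the Scg3 set, and 4 and 5 than in the Lepr set. Ccl8, a monocyte attractant, had 84.8 and 38.4 CPM in members, 62.5 and 40.4 in the Pi16 set and 16.5 and 9.18 in the Scg3 set, so that it overlapped between members and Pi16-positive cells (0.17 ± 0.29) and was higher than in the Scg3 set (2.22 ± 0.32). Ccl2 was lower than in both fibroblast sets (97.6 and 153 against 742 and 361, and 397 and 712; -2.19 and -2.15). Cxcl14 was higher than in the Scg3 set (1.98) and lower than in the Lepr set (-1.48). Chemokines were measured in a minority of members in some cases, Ccl2 in 8.15% and 14.8%.

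Secreted regulators of WNT and BMP signals were called in both directions. Of 8 WNT antagonists other than Dkk2, edgeR called 0 against the Pi16 set (4 were lower at an unadjusted p under 0.05, and DESeq2 called 1), while 2 were higher and 2 lower than in the Scg3 set and 4 were higher and 2 lower than in the Lepr set. Sfrp1 and Sfrp2 were higher in both of the latter comparisons, and Wif1 (WNT inhibitory factor) was lower in both (5.72 and 2.40 CPM in members, 35.2 and 15.9 in the Scg3 set, 170 and 109 in the Lepr set; -2.68 ± 0.65 and -5.06 ± 0.57). Sfrp2 had 116 and 498 CPM in members and 8.10 and 49.1 in the Scg3 set (3.46 ± 0.38). Fst (follistatin), an antagonist of activin, had 414 and 557 CPM in members, 159 and 164 in the Pi16 set, 66.5 and 91.0 in the Scg3 set and 561 and 552 in the Lepr set. It was therefore higher than in both other fibroblast sets (1.55 ± 0.16 and 2.62 ± 0.16), and its difference from the Lepr set did not pass the test (-0.05 ± 0.15). The activin subunit gene Inhba was lower in the fibroblast comparisons (9.22 and 14.4 CPM in members, 23.1 and 39.4 in the Pi16 set, 54.9 and 106 in the Scg3 set; -1.42 and -2.74). Bmper and Gdf10 were higher than in the Scg3 and Lepr sets, and over all 19 tested genes of this list 4 were higher and 7 lower in the former comparison and 7 each way in the latter. Of 12 WNT and R-spondin ligands, 0 were higher by edgeR (0 at an unadjusted p under 0.05, and 0 by DESeq2) and 2 lower than in the Pi16 set, 4 and 2 than in the Scg3 set, and 5 and 3 than in the Lepr set. Wnt10b was lower than in the Pi16 and Scg3 sets (5.08 and 2.40 against 35.2 and 25.2, and 22.2 and 18.6; -3.03 and -2.45), and higher than in the Lepr set (2.20). Wnt5a and Wnt11 were higher than in the Scg3 and Lepr sets, while Wnt2 was lower than in the Scg3 set (-4.04) and Wnt4 and the R-spondin Rspo3 were lower than in the Lepr set (-4.59 and -3.23).

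Of 36 growth factors, 3 were higher (Fgf10, Ntf3 and Angpt1) and 2 lower than in the Pi16 set, 13 and 8 than in the Scg3 set, and 15 and 17 than in the Lepr set. Of 14 genes of the IGF axis, Igfbp5 alone was called in the Pi16 comparison, and 3 were higher and 2 lower than in the Scg3 set and 4 and 7 than in the Lepr set. Pappa, a protease of IGF binding proteins, had 53.1 and 42.0 CPM in members against 1116 and 663 in the Lepr set (-4.03 ± 0.15).

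Enzymes that act on small molecules are the class to which Inmt belongs. Of 24 tested besides Inmt, 4 were higher and 2 lower than in the Pi16 set, 11 and 3 than in the Scg3 set (median 1.06), and 8 and 5 than in the Lepr set. Cyp2f2, a cytochrome P450, had 232 and 348 CPM in members, 129 and 168 in the Pi16 set, 57.5 and 69.7 in the Scg3 set and 4.31 and 10.4 in the Lepr set (0.92, 2.15 and 5.51). Fmo2, a flavin monooxygenase, was higher than in the fibroblast sets (128 and 182 in members; 1.29 and 1.52) but lower than in the Lepr set (391 and 436; -1.28). Of 15 retinoid genes, 2 were higher and 0 lower than in the Pi16 set by edgeR (2 were lower at an unadjusted p under 0.05, and 0 by DESeq2), 5 and 1 than in the Scg3 set and 5 and 4 than in the Lepr set, and Cyp26b1, named above, was higher in every comparison.

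Of 36 position and limb transcription factors, edgeR and DESeq2 each called 0 against the Pi16-positive fibroblasts, where 11 were higher and 2 lower at an unadjusted p under 0.05 in edgeR, while 6 were higher and 1 lower than in the Scg3 set and 18 higher and 5 lower than in the Lepr set. Nr2f2 (COUP-TFII) was higher than in the last 2 sets (42.6 and 61.2 CPM in members; 1.79 and 1.20). Gata6 was at 6.67 and 23.2 CPM against 0.129 and 0.269 in the Lepr set (6.19 ± 0.52). The other fibroblasts carried it too, at 6.54 and 7.98 CPM in the Pi16 set and 3.64 and 8.56 in the Scg3 set. Without the cell of most Gata6 UMIs, old members were at 15.7 CPM.

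Senescence was the subject of the study, and its genes were measured in members as well. Of 21 senescence and survival genes, 0 were higher (2 at an unadjusted p under 0.05, and 1 by DESeq2) and Il1b, a myeloid cytokine, was lower than in the Pi16 set by edgeR, 2 were higher and 1 lower than in the Scg3 set, and 5 and 3 in the Lepr comparison. Cdkn2a, the gene of p16Ink4a, had 1 UMI in 1 young member and 3 UMIs in 2 old members, or 0.272% and 0.985% of them, too few to compare at this depth. Cdkn1a (p21) had 224 and 172 CPM in members, 331 and 157 in the Pi16 set, 426 and 332 in the Scg3 set and 101 and 75.01 in the Lepr set, and was lower than in the Scg3 set (-0.95 ± 0.18) and higher than in the Lepr set (1.34 ± 0.18). The survival gene Bcl2 was higher than in the Scg3 set (33.0 and 39.2 against 14.9 and 12.9; 1.34) and lower than in the Lepr set (-0.83). Il6 was higher than in both of those sets (0.67 and 3.68), although against the Scg3 set its difference was -0.02 when at least 4 rule genes were required. Of 31 immediate-early and stress genes, which respond to tissue digestion, 0 were higher (2 at an unadjusted p under 0.05, and 0 by DESeq2) and 2 lower than in the Pi16 set by edgeR, 2 and 1 than in the Scg3 set, and 7 and 4 than in the Lepr set. Jun, at 1986 and 3584 CPM in members, was among those higher than in the Scg3 set (1.18 ± 0.24).

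Members also differed among themselves, by which of the 6 genes they carried. Members of each mouse were split by detection of each rule gene, and 6516 genes with at least 100 UMIs over both mice that were found in at least 10% of members of each mouse were compared. These genes were picked for the size of their difference in both mice, and they are a description with no test. The splits by rule gene are not separate associations, since a member that lacks a rule gene must carry more of the others. Col6a6 was detected in 61.4% of young members with C7 and 96.2% of those without it, and in 52.5% and 95.1% in the old mouse. With and without Col6a5, it was detected in 86.9% and 56.8% of young members, and in 78.4% and 47.8% of old ones. Postn (periostin), a matrix protein of collagen-rich tissue, went with the collagen VI chains. It had 3963 CPM in young members with Col6a5 and 461 in those without, and 911 and 221 in the old mouse. With and without Col6a6 it was at 2812 and 318 in young members, and at 747 and 156 in old ones. Members with C7 had less of it (936 against 5161, and 327 against 1270). How far these Postn differences are the same contrast was not tested.

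Thbs4 (thrombospondin 4, a tendon matrix protein) and Sfrp2 went with Dkk2 and against Ccl11. Thbs4 had 303 CPM in young members with Dkk2 and 73.3 without, and 351 and 57.0 in the old mouse. It was detected in 20.7% of young and 18.7% of old members, and 15.3% and 32.1% of its UMIs were in 1 cell. With and without Ccl11 it was at 27.5 and 445 in young members, and at 35.9 and 555 in old ones. Sfrp2 was at 14.04 with Ccl11 and 262 without in the young mouse, and at 217 and 1039 in the old. It was detected in 10.1% and 26.6% of members, with 27.3% and 14.7% of its UMIs in 1 cell. Both genes thus showed the same order in both mice, and both were also higher in members with Col6a6 and lower in members with Inmt. Dkk2 itself was detected in 38.1% of young members with Ccl11 and 75.9% of those without it, and in 44.8% and 63.8% of old ones. The splits by Dkk2 and by Ccl11 thus overlap, and how far they are the same contrast was not tested.

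Other genes were higher in members with Ccl11. Sparcl1 was at 665 CPM with Ccl11 and 188 without in young members, and at 1159 and 257 in old members. Sult1e1 was at 143 and 39.4, and at 77.2 and 16.4, so its level was higher in members with Ccl11 in both mice. F3 (tissue factor), Acvr2a (an activin receptor) and Dpep1 were higher with Ccl11 in both mice too, and F3 was lower with Dkk2 and with Col6a5.

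C7 and Inmt went with other genes. Prg4 (lubricin) was at 646 CPM with C7 and 178 without in young members and at 727 and 121 in old members. Inmt went with Fmo2 (191 and 78.4 in young members, 288 and 81.9 in old ones), with Hp (haptoglobin), with Nr2f2 and with Spp1 (osteopontin). Spp1 was at 1417 and 153 in the young mouse and 120 and 21.8 in the old, but 40.3% of its young and 46.0% of its old member UMIs were in 1 cell. Median depth differed little between young members with and without each gene, at most from 6850 to 7669 UMIs for Col6a6, and in the old mouse from 9802 to 12616 for that gene.

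**Figure D4:**
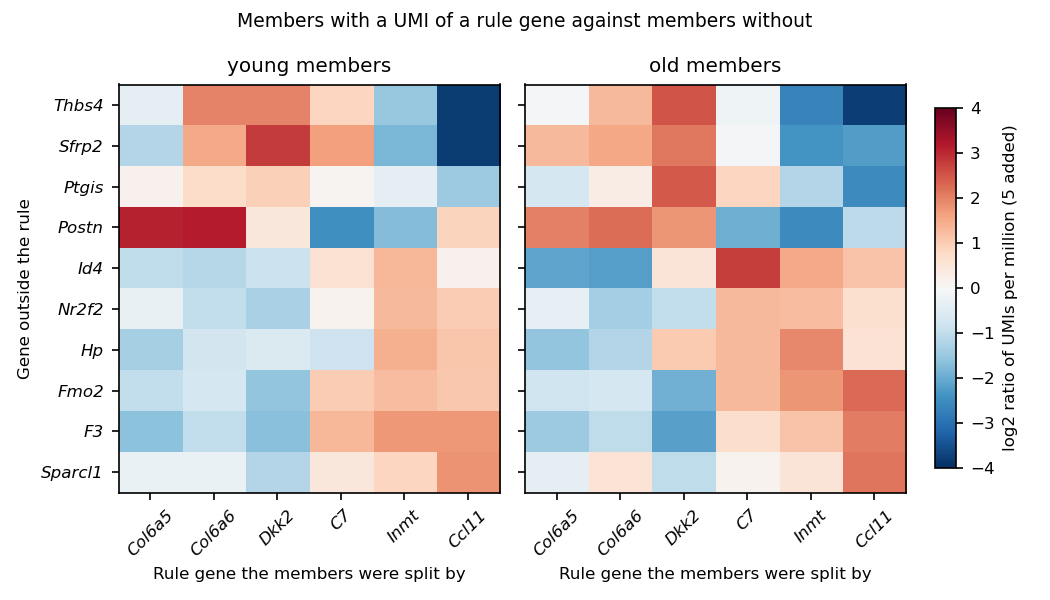
log2 ratio of CPM (5 added) between members with and without a UMI of each rule gene (columns), for genes outside the rule (rows), in the young (left) and old (right) mouse. Postn is higher with Col6a5 (3963 against 461 CPM in the young mouse), and Thbs4 and Sfrp2 are lower with Ccl11 (27.5 against 445, and 14.04 against 262) in both panels.

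CD24 protein, the marker the study followed, was sparse on members. The median antibody count was 75.5 on young and 70.0 on old members, against 92.0 and 95.0 on all kept cells. Above the Otsu threshold of the library (313 counts in the young, 397 in the old) were 22 young members (5.98%; exact interval 3.78 to 8.91) and 5 old members (2.46%; 0.804 to 5.65), while 15.6% and 13.6% of all kept cells lay above it. Young Pi16-positive cells had a share of 5.96% and old ones 3.399%, within the intervals of the members. Lepr Adipoq cells had 5.30% and 3.52% and the Scg3 set 8.75% and 4.74%, so a low share was not particular to members. On erythroid cells 78.4% and 90.1% were positive. The mRNA, Cd24a, had 83 UMIs in 14 young members and 11 UMIs in 7 old members, and 49.4% of the young UMIs were in 1 cell.

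Young and old members were compared gene by gene with no test, since each age was 1 mouse. Among 8904 genes with at least 50 UMIs in both member sums together, 57 (0.640%) were past a log2 ratio of 1 upward in the old mouse and 59 (0.663%) downward, with 5 CPM added. The rule genes themselves changed little, from -0.55 (Col6a6) to 0.04 (C7). Sfrp2 was higher in old members at 498 CPM (exact Poisson interval 470 to 526) against 116 (105 to 129), in 26.6% against 10.1% of members. Its log2 ratio was 2.05 in members, and 1.27, 2.04 and 0.72 in the Pi16, Scg3 and Lepr sets of the same mice. Hk2, a hexokinase, was at 258 against 64.8 CPM (ratio 1.91, and 0.35 to 0.67 in the other sets), and Abcc9, a potassium channel subunit, at 38.4 against 4.13 (2.25, and -0.10 to 0.98). Thus Hk2 and Abcc9 differed more between the members of these mice than between their other sets, which was not tested.

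Other age differences ran through all sets or rested on few cells. Igkc, an immunoglobulin gene, was found in 41.4% of old members (119 UMIs) and 0.543% of young ones, and in 44.1% of all old kept cells. Gm8797 was lower in old members (16.8 against 194 CPM) and also in the other 3 sets (log2 ratios -3.45 to -3.92), as was AA465934. Pttg1 was higher in all 4 sets (1.83 in members, 1.45 to 1.58 elsewhere). Lcn2, Snhg11 and Thbs1 were the other genes named as higher. The hemoglobin genes Hba-a1, Hbb-bs, Hbb-bt and Hba-a2 were lower in old members, but 91.3% to 93.0% of their young UMIs were in 1 cell. Without that cell Hbb-bs fell from 1970 to 139 CPM in young members, against 44.4 in old ones; Hba-a1 and Hba-a2 are near-identical copies, so their separate levels are uncertain. Spp1 was at 69.6 against 705 CPM, with the single-cell shares given above.

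Car4, a membrane-bound carbonic anhydrase, was found in young members and had no UMI in old ones. It had 133 UMIs in 48 young members (13.0%), with at most 12 UMIs in a cell, and 0 UMIs in 203 old members, which allows a share of up to 1.48%. The Scg3 set went the same way, from 148 UMIs in 33 cells to 3 UMIs in 2, and the Pi16 set had 3 UMIs at either age. Over all kept cells Car4 had 312 UMIs in the young library and 11 in the old one.

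Over all 8904 genes, 0.640% were past the ratio upward in old members and 0.663% downward. By list, 4 of 30 immediate-early and stress genes were past the ratio upward in old members and 0 downward, with a median log2 ratio of 0.50 against -0.05 over all 8904 genes. They were Fosb (1492 against 722 CPM), Socs3 (793 against 241), Klf6 (598 against 267) and Hmox1. Of 15 chemokines 1 was higher and 4 were lower, of which Cxcl2 and Cxcl5 had 34.2% and 76.9% of their young UMIs in 1 cell. Sfrp1, like Sfrp2, was higher among 6 WNT antagonists (318 against 135 CPM). Of 17 senescence and survival genes, Il6 was higher (237 against 113 CPM, ratio 1.03) and Mki67, Top2a and Cd24a were lower. Without the cell of most Il6 UMIs in each mouse, Il6 was at 186 against 96.3 CPM. Its old sums were higher in the other sets too: 242 against 150 CPM (Pi16), 158 against 65.1 (Scg3) and 20.5 against 10.2 (Lepr). Mki67 was found in 7.88% of old and 5.16% of young members, and Top2a in 3.94% and 2.72%. Without the highest cell of each mouse, Mki67 was at 14.2 against 40.8 CPM and Top2a at 3.71 against 25.2. Of 12 complement genes Masp1 alone passed the ratio, and of 14 basement membrane genes none did.

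**Figure D5:**
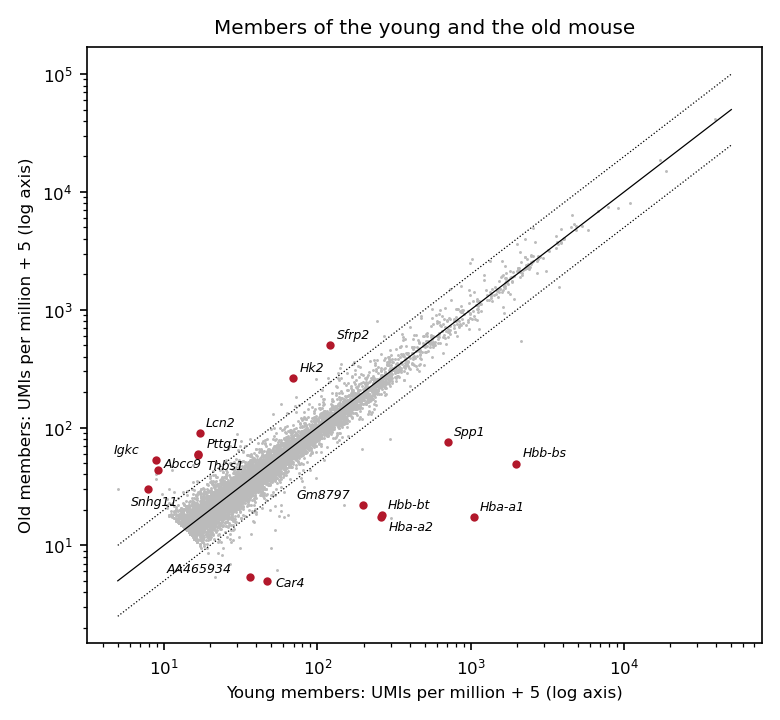
CPM + 5 (log axes) of genes in the member sums of the young (horizontal) and old (vertical) mouse, with the solid line at equal levels and the dotted lines at a log2 ratio of 1 either way. Sfrp2 (116 to 498 CPM) and Hk2 (64.8 to 258) lie above, and Car4 (42.3 to 0.00) and the hemoglobin genes below.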

How the data were processed

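Per the file headers, the authors' deposited matrices hold raw UMI counts of 32285 genes and 1 CD24 antibody per cell barcode, made with Cell Ranger 6.1.1, and the labels name the build mm10; nothing was pooled between mice. The files hold 11371 young and 6729 old barcodes, and 0 columns belonged to other samples. Cells with under 200 genes or over 20% mitochondrial UMIs were left out here, and the rule in the report was applied in Python 3.11.15. Doublets were called with Scrublet in scanpy 1.11.5 and kept, except in an alternative.

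The members and gene lists were chosen with earlier results of these data known. Raw counts were summed per set and mouse, TMM-scaled, filtered with filterByExpr and fitted in edgeR 4.0.16 (R 4.3.3) with a mouse block and 3 residual degrees of freedom; p-values were two-sided and Benjamini-Hochberg adjusted over 13048 genes, and the 12 rule genes were left out of counts. The numbers pair the sums, because the 4 sets come from the same mouse: deviations from the set means correlated at 0.21 to 0.33 between sets over 11373 genes. On simulated counts of these 8 sums with 200 changed genes, 68.5% to 77.0% of log2 changes of 1 (12637 genes run) and 96.0% to 97.5% of log2 changes of 2 (12648 genes run) were recovered over the 3 comparisons. Of the calls, 3.75% to 6.80% were false at log2 changes of 1 and 1.03% to 3.465% at 2. All simulated sums shared the same mean profile without a mouse effect, and no gene of low level was changed. These shares therefore do not carry over to the real sums or to genes of few UMIs.

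Named genes were those called, with the same sign in both mice and at least 50 UMIs over the 8 sums: the 15 highest and 10 lowest in all 3 comparisons by their smallest difference, the 8 highest and 8 lowest per comparison, and list genes of largest difference or highest level. Between ages they were the 8 highest and 8 lowest log2 ratios among genes in at least 10% of members of 1 mouse. CPM are UMIs over the set's total on the counts-per-million scale. Intervals are exact 95% Clopper-Pearson or Poisson intervals. The floor was 3 UMIs. Alternatives were DESeq2 1.42.0, other scaling and filters, no block, fewer sums, cells thinned to 2000 UMIs, a stricter rule, no doublets and a 10% mitochondrial limit. Promoter sequences were taken from RefSeq (GRCm38.p6). Some genes are not reported here.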

Additional observations from a re-analysis of the deposited data

How the results depend on the processing

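The mouse block mattered for the Pi16 comparison, where the paired fit called 374 genes and the fit without the replicate block 120. Other settings gave 903 genes without a filter on low counts, 769 with 4 sums alone, 235 with thinned cells, 224 with at least 4 rule genes and, chosen after seeing the data, 199 without members that had a Lepr UMI. Thinning took the Scg3 count from 1520 to 520 and the Lepr count from 4750 to 2414, with 9552 genes left to test. No other alternative moved the number of called genes by over 1.5 times. Members made up 1.52% of young and 1.48% of old cells with at least 4 rule genes, 1.65% and 1.51% when cells were thinned before the rule, and 5.45% and 6.51% without the exclusions. Members with 3 markers of any other listed class were 75.5% and 91.6%, 24.2% and 46.8% after thinning, and 95.2% in the old mouse with at least 4 rule genes. The CD24+ share was 1.31% in young members after thinning, 10.9% above 2 times the library median, and 0.00% in old members with at least 4 rule genes. Genes past the age ratio numbered 116, and 183 with 1 CPM added, 53 with 20 CPM added and 55 with at least 200 UMIs. Cenpf reversed with at least 4 rule genes (-1.53 against the Pi16, -2.04 against the Scg3 and -1.54 against the Lepr set), as did Il6 against the Scg3 set (-0.022). C5ar1 reversed against the Pi16 set without its cells with a Ptprc UMI or no Dcn UMI, also chosen after seeing the data (1.35), and Col11a2 against the Lepr set after thinning (0.19). The cause was not tested. Of comparisons of single named genes, 80 lost their call without the block, 61 with at least 4 rule genes, 61 without members that had a Lepr UMI, 51 after thinning, 21 without doublets, 15 without Pi16 cells that had a Ptprc UMI or no Dcn UMI and 11 under DESeq2, which gained 16. Young or old mice alone gave log2 differences of the same sign for the called named genes in 619 of 620 cases; the exception was Stra6 against the Lepr set, with no UMI in the old mouse. DESeq2 called 561, 1297 and 3761 genes against the Pi16, Scg3 and Lepr sets. Depth limits genes of few UMIs in members most.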

Other observations

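Cells that carried at least 3 of the 6 rule genes but failed the exclusions numbered 180 (young) and 162 (old). Of these, 133 young and 141 old cells failed through Pi16, 64 and 48 through the Scg3 gene group, and 17 and 27 through both. Sult1e1, which encodes an estrogen sulfotransferase, was at 1.64 CPM in the excluded young cells with 3 rule genes and at 9.83 in the old ones, against 50.4 and 30.5 in the members with 3 genes. At 4 rule genes it was at 75.9 CPM in excluded and 138 in member cells of the young mouse, and at 1.92 and 63.5 in the old. C3, the central complement component, had 1999 and 2335 CPM in excluded cells with 3 genes and 1708 and 2350 in members, so that the values overlapped. Prg4, which encodes the joint lubricant lubricin, had 1665 and 2949 CPM in the excluded cells with 3 genes and 546 and 817 in the members. None of these differences was tested.

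Each gene of the rule could also be read in cells chosen by the other 5. Among cells with at least 3 of the other 5 genes, the remaining gene was detected in 28.0% (Inmt) to 56.9% (Col6a6) of young cells and in 26.8% (Col6a5) to 63.4% (C7) of old cells. Among cells with 0 of the other 5, it was detected in 1.05% to 3.06% of young and 0.853% to 3.94% of old cells. The latter cells were most of each library (for Col6a6, 7269 young and 4102 old cells), so the contrast was not limited to fibroblasts. It is a description with no test. Median depths were 7274 to 7669 UMIs in the young cells with 3 of the other genes and 5778 to 5820 in those with 0. In the old mouse they were 11474 to 12592 and 8774 to 8844 UMIs. The exclusions were applied here as in the rule.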
